A study of Mus musculus with 4 samples.

Results

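The adipogenic transcription factors described here are 10 genes chosen by name: Pparg, Cebpa, Cebpb, Cebpd, Ebf1, Ebf2, Klf15, Zfp423, Nr1h3 and Rxra. All 10 were measured, among 18194 genes in all. Each was represented by its brightest probe set, the one with the highest mean log2 signal over the 4 arrays, and its other probe sets are given beside it. The tissue was epididymal fat, a visceral depot next to the testis, of C57Bl/6J mice, and the platform an Affymetrix mouse genome array. All mice ate a high-fat diet with 60% of energy as fat, starting at 9 weeks of age and lasting 21 weeks. High-calcium replicates 1 and 2 come from mice whose diet held 1.8% calcium and whey protein isolate. The standard array comes from a mouse whose diet held 0.4% calcium. The diet of the fourth array is not settled by its labels, so this array of open diet enters no comparison and its values are given beside the others. The diets differ in calcium and in protein source at once, so these cannot be told apart. The labels speak of 2 mice per diet on arrays, out of 10 fed, and each array is taken as 1 mouse.

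Fat cells form through a relay of transcription factors. C/EBP-beta and C/EBP-delta, encoded by Cebpb and Cebpd, appear early and switch on Pparg and Cebpa. PPAR-gamma and C/EBP-alpha then maintain each other and the genes of the mature fat cell. PPAR-gamma binds DNA together with a retinoid X receptor such as that encoded by Rxra, and so does the oxysterol receptor LXR-alpha, encoded by Nr1h3. Ebf1, Ebf2 and the zinc finger gene Zfp423 mark or commit preadipocytes, and Klf15 acts late and responds to glucocorticoids.

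Promoter sequences from RefSeq (build GRCm38.p6) were at hand for 8 of the 10 members. The 250 bases before a start site are printed for 4 of them, namely Pparg, a target of the C/EBP factors, Cebpa and Cebpb, which had like values across arrays, and Klf15, whose highest array was another. Capitals mark TTGCNNAA, a form of the C/EBP motif, before the third of the 3 Pparg start sites, and TATAAA before Cebpa. They mark TGACG, the core of the cyclic AMP response element, before Cebpb, and CACGTG, an E-box, before Klf15. All motifs were searched on both strands, so that capitals can show the reverse complement, and no marked motif overlaps another.
Pparg (chr6:115421816-115422065, + strand): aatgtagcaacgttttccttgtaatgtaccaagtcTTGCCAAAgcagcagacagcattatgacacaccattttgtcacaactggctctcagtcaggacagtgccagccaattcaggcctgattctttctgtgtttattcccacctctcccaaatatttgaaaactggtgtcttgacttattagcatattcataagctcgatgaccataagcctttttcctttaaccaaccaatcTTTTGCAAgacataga
Cebpa (chr7:35119043-35119292, + strand): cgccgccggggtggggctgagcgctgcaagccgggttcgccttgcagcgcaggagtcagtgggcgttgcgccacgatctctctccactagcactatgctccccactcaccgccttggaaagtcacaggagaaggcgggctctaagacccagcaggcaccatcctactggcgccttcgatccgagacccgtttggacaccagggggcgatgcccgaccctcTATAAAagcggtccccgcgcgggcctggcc
Cebpb (chr2:167688665-167688914, + strand): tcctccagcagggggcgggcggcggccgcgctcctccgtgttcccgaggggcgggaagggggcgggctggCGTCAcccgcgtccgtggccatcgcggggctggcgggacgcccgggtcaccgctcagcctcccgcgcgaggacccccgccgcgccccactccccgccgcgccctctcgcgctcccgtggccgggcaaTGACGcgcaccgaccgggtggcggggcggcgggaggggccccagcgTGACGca
Klf15 (chr6:90462326-90462575, + strand): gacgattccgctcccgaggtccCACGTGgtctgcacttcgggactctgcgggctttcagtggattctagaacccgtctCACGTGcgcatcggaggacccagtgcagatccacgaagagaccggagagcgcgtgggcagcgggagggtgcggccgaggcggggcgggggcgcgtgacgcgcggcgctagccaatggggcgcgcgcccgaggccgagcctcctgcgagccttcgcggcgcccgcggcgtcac

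The Pparg window held 2 C/EBP motifs, starting 215 and 16 bases before the start site. At least 1 copy of this motif stood in 9.56% of all 32851 promoter windows of the same length. TATAAA stood 30 bases before the Cebpa start site and in 12.4% of all windows. The Cebpb window held 3 copies of TGACG, of which 17.8% of windows held at least 1. The Klf15 window held 2 copies of CACGTG, of which 6.02% of windows held at least 1. The other Pparg start sites lacked the C/EBP motif, and the Zfp423 window of its first start site held 1 copy. A match is a run of letters and not evidence of binding. Only 1 probe set represents Pparg, so its signal is not assigned to any of the 3 start sites.

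All 10 representative probe sets were above background on all 4 arrays, where background is the median signal of an array over its 45101 probe sets. No member differed between the diets by limma: 0 of 10 were called at an adjusted p under 0.05, with 0% of all 18194 genes called. Every member had an adjusted p of 0.9999. Unadjusted p-values of the members are not set against those of all genes, because the standard group is 1 array. With 2 arrays against 1 the fit has 1 residual degree of freedom, and an exact permutation test could not give a p below 0.333. The 95% interval of Pparg, for example, ran from -1.42 to 1.05 log2 units and takes in both directions.

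The members' signals differed little from array to array. Over the 4 arrays the widest range of a member was that of Zfp423, 1.59-fold from lowest to highest. The median range was 0.37 log2 units, against 0.45 for the 10463 genes above background on all 4 arrays. The 2 high-calcium arrays nevertheless lay farther apart from each other than their mean lay from the standard array for 9 of 10 members, Pparg being the exception. The same held for 60.4% of genes above background. The median gap between these arrays was 0.37 for the members and 0.25 for genes above background, while the median size of the diet difference was 0.14 and 0.18. The standard array and the array of open diet, by contrast, differed by a median of 0.064 for the members and 0.16 for genes above background.

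**Figure D1:**
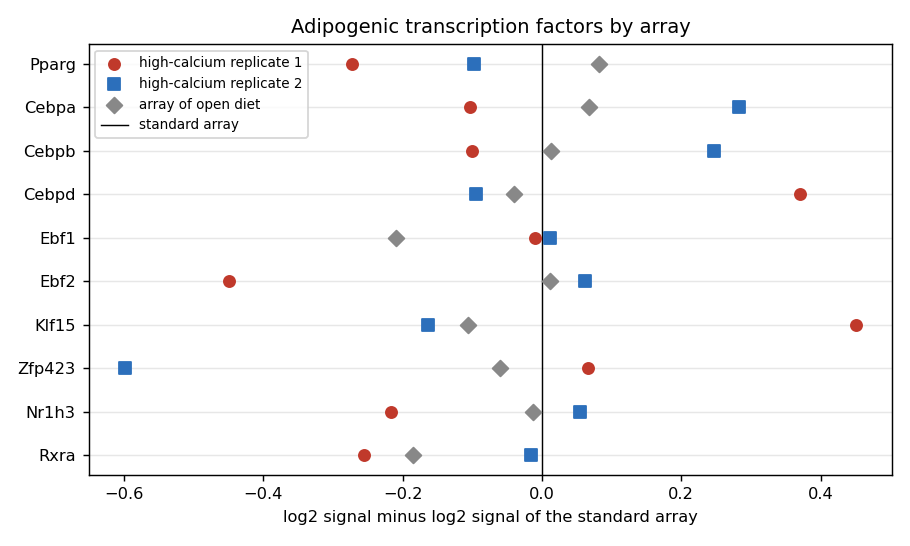
Each row is a member and each point its log2 signal on an array minus that on the standard array, which is the vertical line at 0. Only for Pparg and Rxra do both high-calcium points fall on 1 side, and no point lies farther than 0.60 from the line.

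By direction, 2 of 10 members were lower on both high-calcium arrays than on the standard array, 0 were higher on both and 8 had the arrays on opposite sides. Among genes above background these shares were 27.1%, 35.4% and 37.5%. On replicate 2 alone 5 members were lower, and on replicate 1 alone 7 were. Over single probe sets, 16 of the members' 20 were above background on all 4 arrays. Of these 6 were lower on both high-calcium arrays and 1 was higher, against 26.7% and 35.6% of all probe sets above background. The median member difference was -0.10 on replicate 1 and -0.0019 on replicate 2, against 0.064 and 0.0053 for genes above background.

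**Figure D2:**
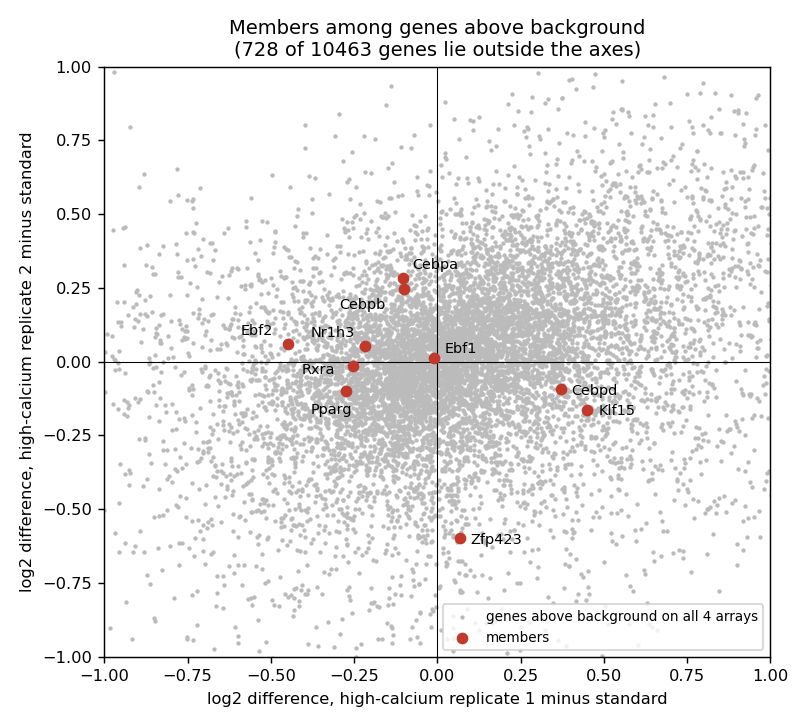
Each point is a gene, placed by its log2 difference from the standard array on high-calcium replicate 1 (horizontal) and replicate 2 (vertical), and both axes share the standard array. The 10 members lie within the grey cloud of genes above background, with 8 in the quadrants where the replicates take opposite sides.

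Pparg encodes the nuclear receptor that drives fat cell formation. Its log2 signal was 1.57 on high-calcium replicate 1, 1.74 on replicate 2, 1.84 for the standard array and 1.92 for the array of open diet. Both high-calcium arrays were the lowest of the 4. The standard group is 1 array, and 27.1% of genes above background were likewise lower on both high-calcium arrays. The difference was -0.19 (SE 0.33, limma adjusted p = 0.9999), made up of -0.27 for replicate 1 and -0.10 for replicate 2. It stayed negative on both replicates after quantile normalization, at -0.22 and -0.10.

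Rxra encodes the partner with which PPAR-gamma and LXR-alpha bind DNA, and its 3 probe sets did not run the same way. The representative one had log2 signals of -1.31 and -1.08 on high-calcium replicates 1 and 2, -1.06 for the standard array and -1.25 for the array of open diet. Replicate 2 lay only 0.016 under the standard array, a smaller step than the gap of 0.24 between the replicates. After quantile normalization it lay on the other side. The second probe set above background (1425762_a_at) had -2.18 and -2.27 on the high-calcium replicates, -2.86 for the standard array and -2.26 for the array of open diet. Here the standard array alone was low. The high-calcium arrays were 0.68 and 0.59 log2 units above it, a mean difference of 0.64 (SE 0.45, limma adjusted p = 0.9999 over all probe sets). The remaining Rxra probe set was not above background on any array. The direction of Rxra thus differed between its probe sets above background.

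Cebpa encodes C/EBP-alpha, which upholds the mature fat cell together with PPAR-gamma. Its log2 signal was 1.73 on replicate 1, 2.11 on replicate 2, 1.83 for the standard array and 1.90 for the array of open diet. Replicate 2 was the highest and replicate 1 the lowest, and the difference between the diets was 0.09 (SE 0.38). Cebpb, an early factor of the relay, followed the same order at both ends, with 0.14, 0.48, 0.24 and 0.25 on these arrays in turn. Its diet difference was 0.07 (SE 0.37). The second Cebpb probe set, also above background, had -1.90, -1.54, -1.84 and -1.89, so replicate 2 was again the highest and the other 3 arrays lay within 0.057 of the standard array. For both genes replicate 2 was about 1.2-fold above the standard array (1.22-fold for Cebpa, 1.19-fold for Cebpb).

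Cebpd, the other early C/EBP factor, had log2 signals of -0.49 on replicate 1, -0.96 on replicate 2, -0.86 for the standard array and -0.90 for the array of open diet. Replicate 1 stood 1.29-fold above the standard array, and the other 3 arrays lay close together. The diet difference was 0.14 (SE 0.41). A second, dim Cebpd probe set was above background on the standard array, at -3.57, and on the array of open diet, at -3.79, and not on either high-calcium array. The background of replicate 1, -3.38, is itself above that standard signal, so no fold is given.

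Klf15, a Kruppel-like factor of mature fat cells, had the same pattern as Cebpd, with -0.81 on replicate 1, -1.42 on replicate 2, -1.26 for the standard array and -1.36 for the array of open diet. Replicate 1 was 1.37-fold above the standard array and 1.53-fold above replicate 2. The diet difference was 0.14 (SE 0.47). With replicate 1 scaled by its own median in place of the deposited scale, the replicate 1 differences of Cebpd and Klf15 turned to -0.25 and -0.17. After quantile normalization they remained positive, at 0.32 and 0.38.

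Ebf1 encodes early B-cell factor 1, which acts in B cells and in fat cell precursors. Its representative probe set did not separate the diets, with log2 signals of -0.059 and -0.037 on the high-calcium replicates, -0.049 for the standard array and -0.26 for the array of open diet. The difference was 0.0012 (SE 0.32), the smallest of any member. All 3 other Ebf1 probe sets above background were lower on both high-calcium arrays. The first of them (1416301_a_at) had -0.41, -0.56, -0.11 and -0.28, the next (1448293_at) -0.50, -0.70, -0.13 and -0.51, and the last (1416302_at) -0.57, -0.89, -0.47 and -0.91, in the order replicate 1, replicate 2, standard, open diet. The fifth Ebf1 probe set (1457441_at) was not above background on any array. On each of the 3 others the standard array was the highest of the 4 arrays. Their diet differences were -0.38, -0.48 and -0.26, with limma adjusted p of 0.9999 each over all 45101 probe sets. The mean over the 4 probe sets above background differed by -0.28 (SE 0.25). This SE comes from a separate fit to such means and is not comparable with the SE of 0.32. Probe sets of a gene share their samples, so their number does not add replicates.

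Ebf2, a marker of committed preadipocytes and a factor of brown and beige fat, lay nearest to background among the members. Its representative probe set had log2 signals of -3.07 on replicate 1, -2.56 on replicate 2, -2.62 for the standard array and -2.61 for the array of open diet. Replicate 1 was the lowest, and the other arrays lay within 0.061 of the standard array. On replicate 1 this probe set was only 0.31 log2 units above background, against 1.38 on the standard array. A second probe set (1418494_at) had -3.31, -2.53, -2.40 and -2.93, and on replicate 1 it was 0.066 above background. The third was above background on all arrays except replicate 1, with -4.69, -2.97, -2.54 and -2.86. The diet difference of the representative probe set was -0.19 (SE 0.43).

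Zfp423, a zinc finger factor that commits cells to the fat lineage, was the member with the widest range. It had log2 signals of -1.44 on replicate 1, -2.11 on replicate 2, -1.51 for the standard array and -1.57 for the array of open diet. Replicate 2 alone was low, 1.51-fold under the standard array, while the other 3 arrays lay within 0.067 of it. The diet difference was -0.27 (SE 0.49), and without replicate 2 it was 0.067. The gap between the high-calcium arrays, 0.66, was larger than that of 84.9% of genes above background.

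Nr1h3 encodes LXR-alpha, a sterol sensor of fat cells and macrophages. Its log2 signal was -0.60 on replicate 1, -0.33 on replicate 2, -0.38 for the standard array and -0.40 for the array of open diet. Replicate 1 was the lowest, 1.16-fold under the standard array, and the other arrays lay within 0.054 of it. The diet difference was -0.081 (SE 0.35).

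**Figure D3:**
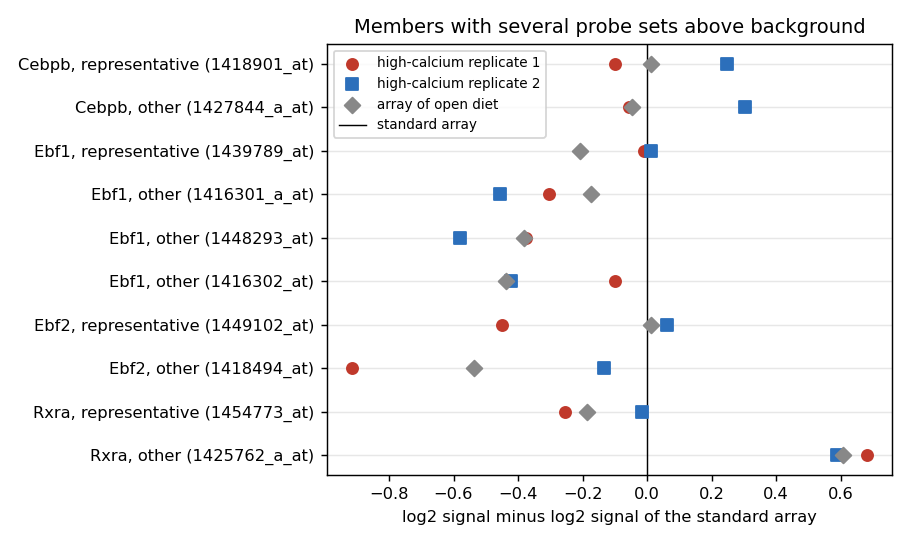
Rows are the probe sets above background on all 4 arrays of the 4 members that have more than 1 such probe set; points are log2 signals minus that of the standard array. The Ebf1 and Rxra representatives lie near 0 or to the left of it, while 3 other Ebf1 probe sets lie to the left on both high-calcium arrays and the other Rxra probe set lies to the right by 0.59 to 0.68.

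The summed signal of fat cell markers varied less between the arrays than that of any other marker list. The 8 measured adipocyte markers had summed signals of 109 and 102 on the high-calcium replicates, 101 for the standard array and 96.4 for the array of open diet, on the deposited linear scale. None was at or under background. The 12 macrophage markers summed to 44.5 on replicate 1, 78.3 on replicate 2, 72.6 for the standard array and 78.3 for the array of open diet. Of these, 5 were lower on both high-calcium arrays and 1 was higher. The 10 progenitor and fibroblast markers summed to 31.9, 45.6, 44.4 and 41.5 on these arrays, with 4 lower on both and 1 higher. In whole tissue, fewer cells of a type and less RNA per cell cannot be told apart.

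Replicate 1 stood apart in the markers of several other cell types. The 10 smooth muscle markers summed to 78.4 on replicate 1, as against 10.0 to 13.1 on the other 3 arrays. The 9 measured B-cell markers summed to 3.38, as against 0.587 to 0.907, and only 2 of them were above background on all arrays. The 8 mesothelial markers, of the pad's lining, summed to 6.92, as against 2.41 to 2.84, and 6 of the 8 were higher on both high-calcium arrays. The keratins Krt8 and Krt19, which other epithelia express too, carried most of that sum. Without them, a choice made after their values were seen, the other 6 summed to 2.63 and 1.92 on the high-calcium replicates, 1.17 on the standard array and 2.12 on the array of open diet, so that the standard array was the lowest. The 7 measured epididymis and efferent duct genes summed to 31.5 on replicate 1, 0.240 on replicate 2, 4.26 for the standard array and 0.347 for the array of open diet. Of these 4 were not above background on any array. Spink8 and Defb42, with log2 signals of 4.42 and 3.25, carried most of the replicate 1 sum. Adgrg2, the only 1 of the list above background on all 4 arrays, went another way. It was highest on the standard array, at 0.61, with -1.62 and -2.84 on the high-calcium replicates and -2.26 on the array of open diet. The 10 endothelial markers summed to 9.21 on the standard array and to 5.33 to 6.25 on the other 3, and 9 of 10 were lower on both high-calcium arrays.

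Several members were lowest or highest on the same array as some of these sums. Each such match rests on the rank of 1 array. On replicate 1 some sums were the lowest and others the highest, so a member at either end had a match. Replicate 1 was the lowest or highest array for 9 members, and for 67.4% of genes above background. Pparg, Cebpa, Cebpb, Ebf2, Nr1h3 and Rxra were lowest on replicate 1, where the macrophage and progenitor sums were lowest as well. Zfp423, by contrast, was highest there, though only 0.067 above the standard array. Ebf1 on its 3 other probe sets above background was highest on the standard array, where the endothelial sum was highest. Its representative probe set was highest on replicate 2. Cebpd, Klf15 and Zfp423 were highest on replicate 1, where the smooth muscle, B-cell, mesothelial and duct sums were highest. The part of these cell types in the member values was not tested.

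**Figure D4:**
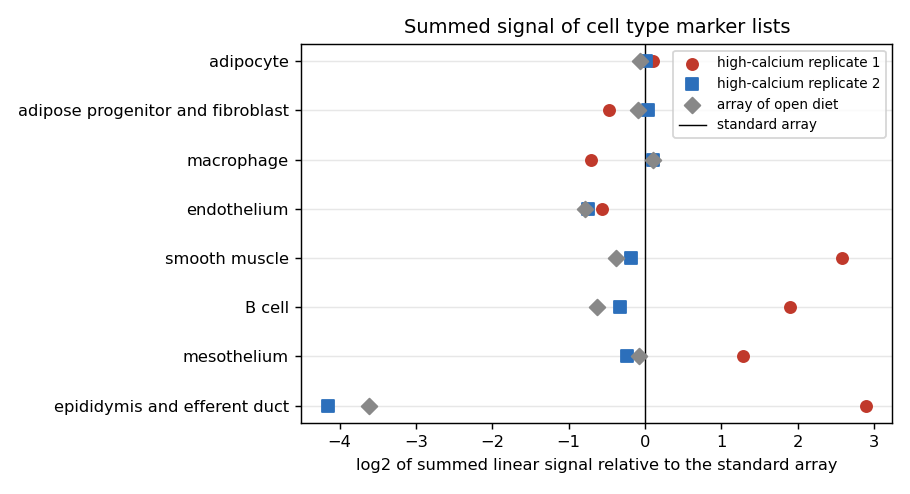
Each row is a marker list and each point the log2 of its summed linear signal on an array relative to the standard array at 0. The adipocyte sums lie within 0.11 of the standard array, while the smooth muscle sum of replicate 1 lies 2.58 above it.

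Genes tied to the members were read from 6 lists, and limma called 0 genes in each. The list of PPAR-gamma and C/EBP-alpha targets had 26 measured genes, all above background on all 4 arrays. Of these, 13 were higher on both high-calcium arrays and 5 were lower, with a median difference of 0.11, against 35.4% higher, 27.1% lower and a median of 0.030 among genes above background. After quantile normalization 11 were higher and 7 lower, with a median of 0.053. Centring each array on its median moves the median of all genes to -0.24, with 20.4% of them higher and 38.8% lower. In the list 0 were then higher and 8 lower and the median was -0.21, so its sign depends on the scale. The largest same-sided differences were those of Lep, the hormone leptin, at 0.44 (SE 0.32), Slc2a4, the insulin-responsive glucose transporter, at 0.35 (SE 0.37), and Pck1, an enzyme of glyceroneogenesis, at 0.32 (SE 0.36). Slc2a4 had log2 signals of -0.16 and -0.50 on the high-calcium replicates, -0.68 for the standard array and -0.92 for the array of open diet. Lep had 3.58 and 3.63 against 3.16, and 3.56 on the array of open diet. Pck1 had 1.35 and 1.67 against 1.20, and 1.34 on the array of open diet. Pparg itself was lower than the standard array on both high-calcium arrays, as were 5 of the 26 targets. The 3 named genes were picked from these data by the size of their differences, none of which passed the test.

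Other transcription factors that favour fat cell formation were lower on both high-calcium arrays for 11 of 24 measured genes and higher for 3, with a median difference of -0.13, against 23.9% lower, 38.6% higher and a median of 0.079 over all genes. After quantile normalization 7 were lower and 3 higher, with a median of -0.15. With median centring 15 were lower and 1 higher, with a median of -0.45, while 38.8% of all genes were then lower on both, 20.4% higher and the median of all genes was -0.24. Prdm16, a determinant of brown fat identity, had log2 signals of -2.70 and -2.42 on the high-calcium replicates, -1.52 for the standard array and -2.51 for the array of open diet. Zfp467, a zinc finger gene that promotes fat over bone formation, had -1.92 and -1.84 against -1.18, and -1.78 on the array of open diet. For both the standard array alone was high. Their differences were -1.05 (SE 0.36) and -0.70 (SE 0.32), both with a limma adjusted p of 0.9999. Ebf3, a relative of Ebf1 and Ebf2, differed by -0.36 (SE 0.46), at -0.65 for replicate 1 and -0.067 for replicate 2.

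Regulators that oppose fat cell formation were lower on both arrays for 6 of 21 measured genes and higher for 7, with a median of 0.0071, beside the 23.9% and 38.6% of all genes given for the previous list. On median-centred arrays 9 were lower and 4 higher, with a median of -0.31, against 38.8%, 20.4% and -0.24 over all genes. Hes1, a Notch target, had log2 signals of -1.62 and -2.55 on the high-calcium replicates, -3.38 for the standard array and -3.11 for the array of open diet, a difference of 1.30 (SE 0.61). Ccn5, a secreted Wnt-linked protein of precursor cells, had -0.76 and -0.70 against -1.52, with -1.09 on the array of open diet, a difference of 0.79 (SE 0.32). Nr2f2, the orphan receptor COUP-TFII, differed by -0.59 (SE 0.58), at -0.15 for replicate 1 and -1.02 for replicate 2. Each had a limma adjusted p of 0.9999.

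Coregulators that PPAR-gamma, LXR-alpha or the C/EBP factors recruit showed no shared direction on the deposited scale. Of 18 measured genes, both high-calcium arrays were lower for 8 and higher for 5, and the median difference was -0.060, against 27.1% lower, 35.4% higher and a median of 0.030 among genes above background. With each array centred on its median 12 were lower and 0 higher, with a median of -0.38, so the balance depends on the scale. Over all genes 38.8% were then lower, 20.4% higher and the median was -0.24. Ep300, a histone acetyltransferase, differed by -0.46 (SE 0.33), Tbl1xr1, a subunit of corepressor complexes, by 0.35 (SE 0.36) and Tle3, a coregulator of PPAR-gamma, by 0.34 (SE 0.34).

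LXR targets, a list that includes Nr1h3 itself, were lower on both arrays for 2 of 10 and higher for 2. Their median was -0.046, against 27.1% lower, 35.4% higher and a median of 0.030 among genes above background. On median-centred arrays 5 were lower and 1 higher, with a median of -0.36. Over all genes 38.8% were then lower, 20.4% higher and the median was -0.24. Abca2, a lipid transporter, differed by 0.41 (SE 0.45), Abcg1, a cholesterol exporter, by -0.33 (SE 0.47) and Scd1, the stearoyl-CoA desaturase, by 0.17 (SE 0.34). Abcg1 had log2 signals of -0.041 on replicate 1, 0.56 on replicate 2, 0.59 for the standard array and 0.46 for the array of open diet. Replicate 1 alone was low, as it was for Nr1h3 and for the macrophage sum, and a link between these was not tested. Abca1 and Pltp were lowest on replicate 1 too, while Mylip, Srebf1, Lpcat3, Scd1 and Abca2 were highest there.

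Klf15 and glucocorticoid targets were lower on both arrays for 5 of 13 measured genes and higher for 3, with a median of -0.14, against 23.9%, 38.6% and 0.079 over all genes. Median centring gave 7 lower and 1 higher, with a median of -0.46, against 38.8%, 20.4% and -0.24 over all genes. Sgk1, a kinase induced by glucocorticoids, differed by -0.40 (SE 0.39), at -0.60 for replicate 1 and -0.20 for replicate 2. Mt2, a metallothionein, differed by 0.36 (SE 0.33), and Slc2a4, described among the PPAR-gamma targets, is on this list too. Klf15 was highest on replicate 1, and the list's median on replicate 1 was -0.18 and on replicate 2 -0.070.

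**Figure D5:**
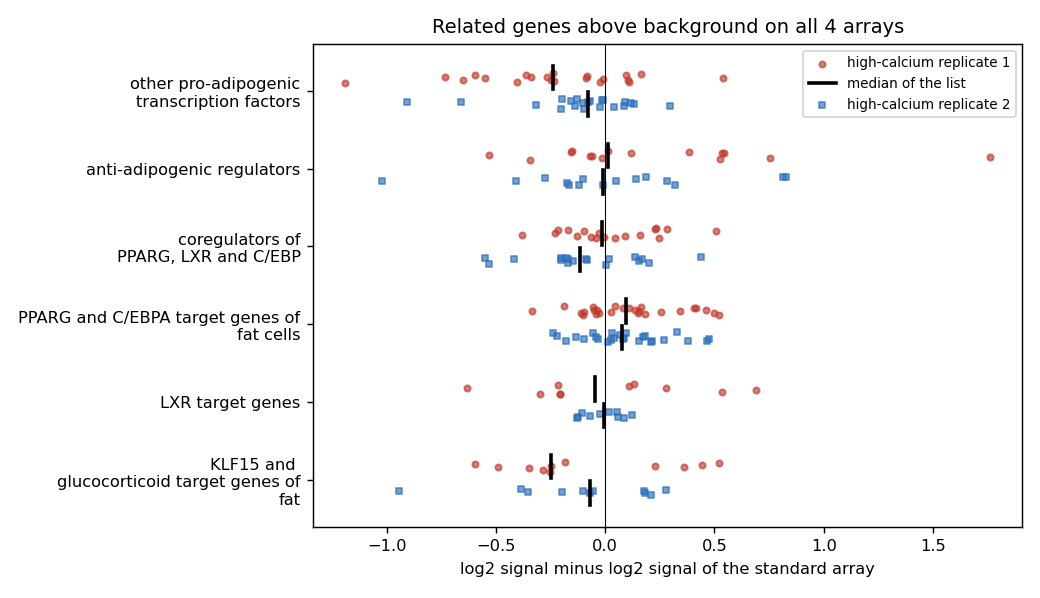
Each row is a list and each point a gene above background on all 4 arrays, placed by its log2 signal minus that of the standard array, separately for high-calcium replicates 1 (circles) and 2 (squares); black bars are medians. List medians lie between -0.25 and 0.10, while single genes reach -1.19 (Prdm16) and 1.76 (Hes1) on replicate 1.

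No member ranged over 1 log2 unit on the 4 arrays, the range set for naming genes of like pattern, so none were named.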

How the data were processed

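The deposited file holds 1 linear intensity per probe set, for 45101 probe sets on each of 4 arrays. Per the submitters' processing notes RMA was used, but the deposited intensities are not on its log2 scale, and the sources used here do not give their scaling. Array medians were 0.0963 and 0.0628 on high-calcium replicates 1 and 2, 0.0624 for the standard array and 0.0585 for the array of open diet. The number of arrays limits the precision.

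Values were log2 transformed with no added constant and named through the platform annotation (1 symbol for 34958 probe sets, several for 932, none for 9211; of the first, 34754 matched a current gene record by Entrez identifier). The groups of 2 and 1 arrays were compared by limma 3.58.1 (lmFit, eBayes; R 4.3.3), two-sided, adjusted by Benjamini-Hochberg over all genes, or all probe sets where those are compared. The lone standard array is assumed to vary like the 2 high-calcium arrays, whose gap alone gives the residual. The eBayes step draws each gene's variance toward a value shared by all genes, with 2.38 total degrees of freedom, 1 of them residual. SEs and p-values thus rest on that gap and on the shared value, and do not measure the spread between mice on the standard diet. The fit was tested on simulated data.

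Members and lists were chosen with earlier results of these data known. Named genes are the members and 3 per related list. Those 3 had the largest differences among genes above background on all 4 arrays with both high-calcium arrays on 1 side. Marker lists are given as sums and counts. Further LXR targets and marker genes were named after their values were seen, to show where a list was not uniform. Alternatives were quantile normalization, median centring, the mean of all probe sets or of those above background, leaving out probe sets that may share transcripts, genes above background only, a trend with robust estimation, adding 0.1 before the log, and omitting either high-calcium array. Figures used matplotlib 3.10.9.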

Additional observations from a re-analysis of the deposited data

Results flagged for a closer look

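The Rxra probe set 1425762_a_at, which does not represent the gene, exceeded the standard array by 0.61 log2 units on the array of open diet. It stood out because that array enters no comparison and because the excess is larger than the SD between the high-calcium arrays. For the 15 other member probe sets above background on all 4 arrays, no excess of the array of open diet was larger than that SD. Shortfalls were not part of this rule. The representative Rxra probe set was 0.19 lower there than on the standard array, against an SD of 0.17. The Ebf1 representative and Ebf1 probe sets 1416301_a_at, 1448293_at and 1416302_at differed there by -0.21, -0.17, -0.38 and -0.44 log2 units. Their SDs between the high-calcium arrays were 0.015, 0.11, 0.14 and 0.23. On 1425762_a_at both high-calcium arrays also exceeded the standard array, by 0.68 and 0.59 log2 units, so the standard array alone was low.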

How the results depend on the processing

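No paired analysis was possible because the labels give replicate numbers to the high-calcium arrays only. The count of members called was 0 in the comparison as reported and under all 8 fitted alternatives. The count of genes called, 0 as reported, was 96 (61 higher, 35 lower) with each array centred on its median and 6, all lower, with trend and robust estimation. Centring moved the median difference of all genes from 0.079 to -0.24, and 5 members were then lower on both high-calcium arrays, namely Pparg, Cebpd, Klf15, Zfp423 and Rxra. Members that turned negative there were Cebpa (-0.23), Cebpb (-0.24), Cebpd (-0.18), Ebf1 (-0.32) and Klf15 (-0.17). Centring lowers the difference of every gene by the same amount. With the mean of all probe sets, dim ones included, Cebpd turned to -1.74, Ebf1 to -0.057 and Rxra to 0.85; those lower on both arrays were then 3, Pparg, Cebpd and Ebf2. With the mean of probe sets above background, an alternative chosen after seeing the data, Ebf1 turned to -0.28 and Rxra to 0.25; those lower on both were then 3, Pparg, Ebf1 and Ebf2. Quantile normalization turned Ebf1 to -0.014, and the 2 members lower on both were then Pparg and Zfp423. The filter on dim genes, the trend with robust estimation and leaving out shared probe sets keep every member's value by construction. The constant of 0.1 turned 0 members. Leaving out 1 high-calcium array leaves no residual degrees of freedom and so gives values with no test: members under the standard array then numbered 5 to 7. Without replicate 1 the direction of 4 members turned (Cebpd, Ebf2, Klf15 and Nr1h3), and without replicate 2 that of 4 others (Cebpa, Cebpb, Ebf1 and Zfp423).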
